A study of Mus musculus with 2 samples.

Results

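Chemokines are small secreted proteins that guide cell migration, and their receptors are G protein-coupled receptors found mainly on leukocytes. The members described here are all genes of the CC and CXC chemokine families (Ccl and Cxcl ligands, Ccr and Cxcr receptors) that had a probe set of their own on a mouse expression array. They were found by gene symbol in the platform annotation, leaving out probe sets assigned to several genes. This gave 45 of 18194 genes, on 69 of 45101 probe sets: 31 ligand genes with 46 probe sets and 14 receptor genes with 23. A further 4 probe sets that list a chemokine gene together with others were not used.

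The series holds 2 arrays of 1 group, the mouse embryonic stem (ES) cell line ESSP9 with the genotype Del1.3MbWBS, a deletion of 1.3 Mb in the region lost in Williams-Beuren syndrome. The cells grew on a monolayer of feeder cells in medium with 20% Knockout Serum Replacement, leukaemia inhibitory factor and β-mercaptoethanol. The arrays are labelled biological replicates 1 and 2 of this 1 line, with nothing on separate cultures, so their spread may be partly technical. No line without the deletion was analysed here, so no value below shows an effect of the deletion.

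The CC and CXC classes are named for their first cysteines, which are adjacent in CC chemokines and parted by another residue in CXC chemokines. Many are inflammatory and are induced in fibroblasts, endothelium and macrophages through the transcription factor NF-κB or by interferon. Others, such as CXCL12, are produced steadily and hold stem and progenitor cells in place. A ligand can serve several receptors, and most receptors bind several ligands.

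Most chemokine ligand genes and few chemokine receptor genes were above background on these arrays. Genes counted as above background if both arrays and their mean exceeded a threshold set by 39 olfactory receptor genes, which are not known as genes of ES cells or fibroblasts. It was their 95th percentile, at 5.60 on replicate 1, 5.58 on replicate 2 and 5.59 for the mean, in log2 units after RMA (robust multi-array average). By this rule 25 of 31 ligand genes (80.6%) and 2 of 14 receptor genes (14.3%) were above background, beside 68.4% of all genes. With vomeronasal and taste receptor genes as the reference, 61.3% of ligand genes and no receptor gene were called, beside 61.7% of all genes. The median value was 7.26 for ligand genes, 4.46 for receptor genes and 7.19 for all genes. Probes differ in affinity, which limits each call against the olfactory receptor genes. For the same reason these medians only describe the lists, and members were not ranked against each other.

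**Figure D1:**
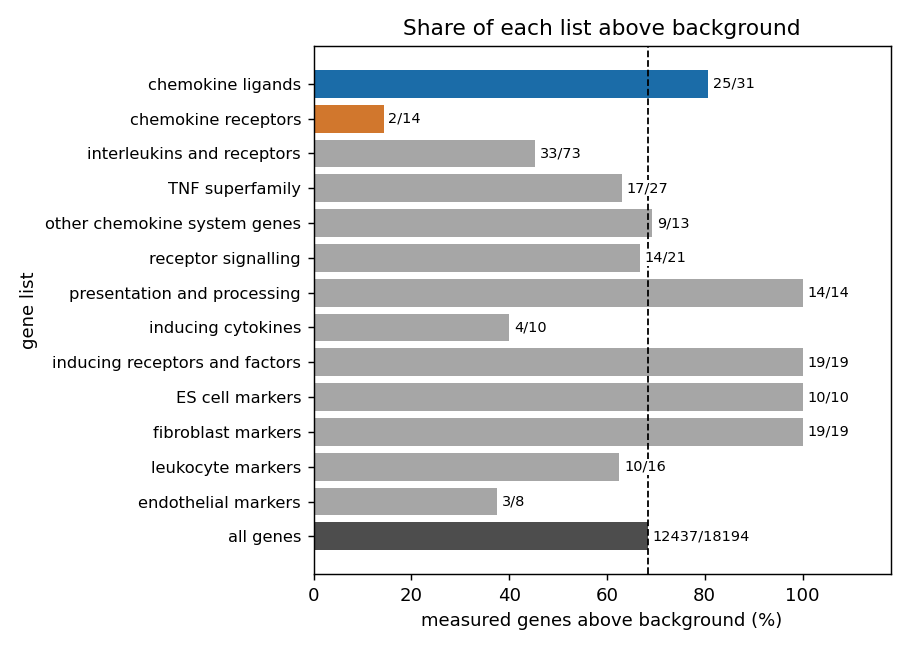
Bars show the percentage of measured genes above background in each gene list, with the counts beside them; the dashed line marks the 68.4% of all genes. Chemokine ligands stand at 80.6% and chemokine receptors at 14.3%, while all ES cell and fibroblast markers measured were above background.

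The RNA came from a culture with more than 1 cell type. All 10 ES cell markers were above background, among them Pou5f1 (12.63 ± 0.020, SD, n = 2), Nanog (12.11 ± 0.063), Sox2 (12.11 ± 0.047) and Klf4 (11.23 ± 0.044). So were all 19 measured fibroblast markers, with values from 8.92 to 14.87, among them the collagen genes Col1a1 (12.67 ± 0.021), Col1a2 (14.87 ± 0.0061), Col3a1 (14.86 ± 0.0025) and Col5a1 (12.73 ± 0.014). The mean of the fibroblast list was 12.18 on replicate 1 and 12.19 on replicate 2, and that of the ES list was 11.69 on both. Which cells a chemokine transcript came from was not tested, and in such bulk RNA fewer cells of a type and less RNA per cell cannot be told apart.

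To show regulatory sequence beside the values, the 250 bases before the annotated start are printed for 3 CXC ligand genes above background whose windows hold an NF-κB-like match, and for the CXCL12 and CXCR4 genes, a ligand and receptor pair on either side of the threshold, whose windows hold none. Sequences are from RefSeq on GRCm38.p6, read 5′ to 3′ on the gene's strand, and capitals mark the letters GGANNTTCC, the core of many NF-κB sites, on either strand, where N is any base. They lie at chr5:90890995-90891244 (plus strand) for Cxcl1, chr5:90903649-90903898 (plus) for Cxcl2, chr5:92348890-92349139 (minus) for Cxcl10, chr6:117168285-117168534 (plus) for Cxcl12 and chr1:128592300-128592549 (minus) for Cxcr4.
Cxcl1: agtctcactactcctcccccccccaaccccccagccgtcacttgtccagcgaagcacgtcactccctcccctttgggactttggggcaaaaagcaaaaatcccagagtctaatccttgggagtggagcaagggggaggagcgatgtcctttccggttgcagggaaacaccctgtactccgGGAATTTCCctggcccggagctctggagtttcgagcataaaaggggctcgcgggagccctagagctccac
Cxcl2: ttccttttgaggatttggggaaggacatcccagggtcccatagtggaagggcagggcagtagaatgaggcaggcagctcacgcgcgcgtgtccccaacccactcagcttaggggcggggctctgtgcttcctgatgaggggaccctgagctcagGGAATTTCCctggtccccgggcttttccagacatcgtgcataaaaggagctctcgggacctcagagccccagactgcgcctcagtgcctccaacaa
Cxcl10: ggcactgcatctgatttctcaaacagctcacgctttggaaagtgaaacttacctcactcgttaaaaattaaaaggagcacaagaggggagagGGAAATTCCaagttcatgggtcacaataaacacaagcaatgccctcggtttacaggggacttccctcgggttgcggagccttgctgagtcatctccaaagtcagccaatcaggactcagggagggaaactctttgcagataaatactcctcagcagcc
Cxcl12: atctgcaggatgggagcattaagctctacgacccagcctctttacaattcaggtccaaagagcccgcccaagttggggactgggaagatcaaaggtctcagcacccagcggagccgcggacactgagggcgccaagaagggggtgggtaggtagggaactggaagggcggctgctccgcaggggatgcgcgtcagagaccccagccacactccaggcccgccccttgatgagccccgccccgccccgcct
Cxcr4: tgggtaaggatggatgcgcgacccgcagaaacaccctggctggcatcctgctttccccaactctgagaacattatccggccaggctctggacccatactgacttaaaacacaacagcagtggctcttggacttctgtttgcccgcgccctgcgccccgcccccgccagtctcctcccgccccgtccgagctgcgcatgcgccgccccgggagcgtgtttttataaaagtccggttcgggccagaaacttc
Cxcl1 and Cxcl2 held the same run, GGAATTTCC, beginning 70 bases before the start of Cxcl1 and 96 bases before that of Cxcl2. In Cxcl10 the run was GGAAATTCC, beginning 158 bases before the start. Each of the 3 runs matched on both strands. Capitals leave out other forms: the Cxcl10 window also holds ggacttccc, which matches only the looser GGANNNNCC given below.

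Windows were matched for 32 member genes. The motif lay in 6 of 21 ligand genes (Ccl1, Ccl12, Cxcl1, Cxcl2, Cxcl3 and Cxcl10) and in 1 of 11 receptor genes (Ccr3), beside 4.12% of all genes with a window. Of the 15 ligand genes with a window that were above background, 4 held it, and Ccl1 and Cxcl3, which also held it, were not above background. A looser form, GGANNNNCC, lay in 14 of 21 ligand genes and 6 of 11 receptor genes, beside 45.3% of all genes, and the Cxcl12 window was among them while that of Cxcr4 was not. The motif was picked after several patterns had been searched in these windows. A match is a description of these letters, not of a bound site.

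The 4 Cxcl genes paired here with CXCR2, the neutrophil receptor, were split. Chemokine genes with other names, such as Ppbp, are not in this set and are given below. Cxcl1 was at 12.82 on replicate 1 and 12.91 on replicate 2, and all of its 3 probe sets were above background. Cxcl5, another attractant of neutrophils, was at 13.10 and 13.13. Cxcl2 was at 7.54 and 7.57. On both arrays these genes stood clear of the threshold by more than 1 log2 unit. The fourth gene of this set, Cxcl3, was at 5.34 and 5.52 and was not above background on either array. Their receptor gene Cxcr2 was at 4.19 and 4.05, also below the threshold on both.

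The interferon-inducible ligands, which attract activated T cells through CXCR3, were all 3 above background, Cxcl11 not under every setting. Cxcl10 was at 10.83 on replicate 1 and 10.90 on replicate 2, and Cxcl9 at 8.53 and 8.65. The replicates of each lay close together, far from the threshold. Cxcl11 was nearer to it, at 6.11 and 6.12, and its other probe set was at 3.96 and 3.79. Its call was lost with the median of its probe sets and with vomeronasal and taste receptor genes as the reference for background. The receptor gene Cxcr3 was not called, at 5.43 and 5.29.

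Cxcl12, which holds stem cells in their niches and guides migrating germ cells, was at 12.93 on replicate 1 and 12.92 on replicate 2. Its other probe sets were at 11.28 on both arrays and at 6.39 and 6.23, so all 3 were above background. Cxcr4, its signalling receptor, was at 3.84 and 3.62, more than 1 log2 unit below the threshold on each array. Ackr3, the atypical receptor that takes up CXCL12, was at 9.85 and 9.77 on a probe set marked as shared between transcripts. Ackr3 is a member of a list given below and was named after its value was seen.

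Among the other CXC ligands, Cxcl14, made mainly by epithelium and stroma, was at 9.53 and 9.58. Cxcl16, which is made as a membrane-bound protein and binds CXCR6, was at 8.08 and 8.03, and Cxcl15, known from lung, at 7.43 and 7.48. These genes were clear of the threshold on both arrays. Cxcl17, a mucosal chemokine, lay just above it at 5.72 and 5.83, a call lost with the vomeronasal and taste receptor reference. Cxcl13, the B cell attractant, lay across the threshold at 5.80 and 5.47 and was not called. Neither Cxcr5, the receptor for CXCL13 (4.06 and 4.04), nor Cxcr6 (5.55 and 5.68) was called.

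**Figure D2:**
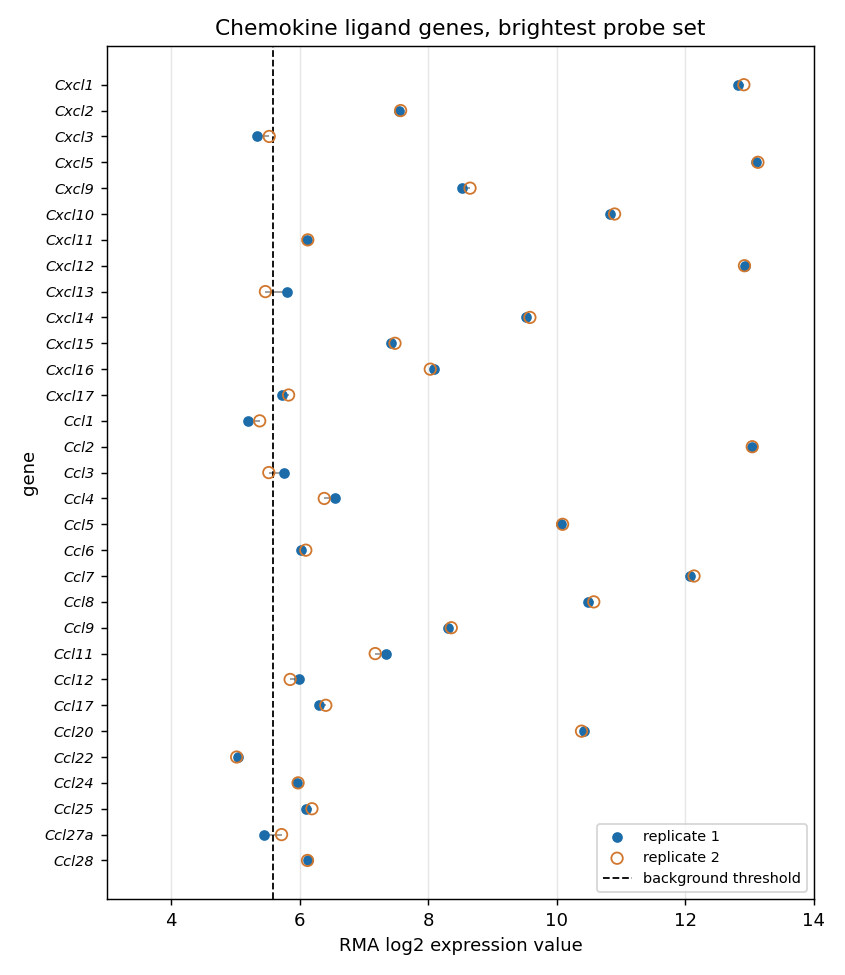
Each row is a chemokine ligand gene, CXC genes first, with the RMA log2 value of its brightest probe set on replicate 1 (filled) and replicate 2 (open); the dashed line is the background threshold for the mean, 5.59. Ccl2, Ccl7, Cxcl1, Cxcl5 and Cxcl12 lie above 12 on both arrays, and Ccl3, Cxcl13 and Ccl27a have 1 array on each side of the line.

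The 3 CC ligand genes paired here with CCR2, the monocyte receptor, were above background. Ccl2, the main ligand of CCR2, was at 13.04 on both replicates, and Ccl7, which binds CCR1, CCR2 and CCR3, was at 12.07 and 12.13. Ccl8, paired here with CCR8, was at 10.48 and 10.57. These values lay more than 4 log2 units above the threshold on both arrays. Ccl12, a mouse ligand of CCR2, was at 5.98 and 5.85, and Ccl11, the eosinophil attractant eotaxin, at 7.34 and 7.17. Ccl24, another eotaxin, was at 5.96 and 5.97. All 3 were above background, Ccl12 and Ccl24 by less than 1 log2 unit. The calls of Ccl12 and Ccl24 were lost with the vomeronasal and taste receptor reference.

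Of the inflammatory CC ligands made by macrophages and T cells, Ccl5 was at 10.06 on replicate 1 and 10.09 on replicate 2. Ccl9 was at 8.31 and 8.36 on its brightest probe set, with both of its probe sets above background. Ccl4 was at 6.54 and 6.38. Ccl6 was at 6.01 and 6.09, while its other probe set was at 4.07 and 3.98. The Ccl6 call was lost with the median of its probe sets and with the vomeronasal and taste receptor reference. Ccl3, a close relative of Ccl4, was at 5.76 and 5.52: above the threshold on replicate 1, below it on replicate 2, and not called.

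Ccl20, which attracts dendritic cells and T cells through CCR6, was at 10.43 and 10.38. The other homeostatic CC ligands were near the threshold. Ccl17 was at 6.29 and 6.40, whereas Ccl22, which shares the receptor CCR4 with it, was at 5.04 and 5.02 and was not called. Ccl25, known from thymus and gut, was at 6.10 and 6.19 with both probe sets above background. Ccl28, a mucosal chemokine, was called on 1 of its 3 probe sets, at 6.12 on both arrays, and its other probe sets were at or below 5.40. The Ccl28 call was lost with the median of its probe sets and with the vomeronasal and taste receptor reference. Ccl27a, known from skin, was at 5.44 and 5.72, and Ccl1 at 5.20 and 5.38; neither was called.

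**Figure D3:**
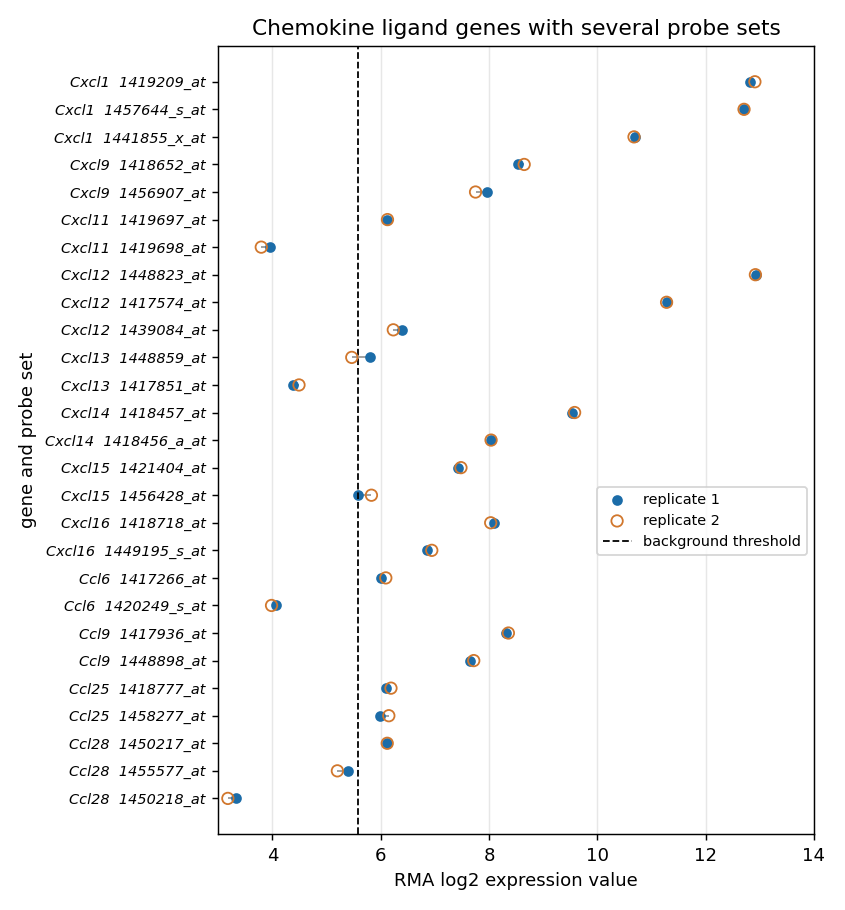
Each row is a probe set of the 12 ligand genes with several, with its RMA log2 value on replicate 1 (filled) and replicate 2 (open) and the background threshold of 5.59 (dashed). For Cxcl1 and Cxcl12 all 3 probe sets were above the threshold, while for Cxcl11, Cxcl15, Ccl6 and Ccl28 some were and others were not.

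Of the 31 ligand genes, 16 lay at least 1 log2 unit above the threshold, a smaller share than the 56.5% of all genes. The other 9 of the 25 ligand genes called lay within 1 log2 unit of it. Counted by probe set, 34 of 46 ligand probe sets and 2 of 23 receptor probe sets were above background, beside 61.8% of all probe sets of 1 gene. The probe sets of 5 member genes disagreed: Ccl6, Ccl28, Cxcl11, Cxcl15 and Ccr2. The choice of the brightest probe set favours genes with several. Ligand genes had 1.48 probe sets each, receptor genes 1.64, the olfactory reference genes 1.13 and all genes 1.92.

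Both called receptor genes were near the threshold. Ccr10, whose product binds the skin and mucosal chemokines CCL27 and CCL28, was at 6.32 on replicate 1 and 6.14 on replicate 2, on its only probe set. Ccr2, the monocyte receptor, was at 5.98 and 5.67 on probe set 1460067_at. Its other 3 probe sets had means of 3.63, 3.40 and 3.37, so the call of Ccr2 rests on 1 of 4 probe sets. With 38 vomeronasal and taste receptor genes as the reference, which put the threshold at 6.06, none of the 14 receptor genes was called. With the 99th percentile of the olfactory genes Ccr10 alone was, and with the 90th percentile, at 5.07, the count was 4, with Cxcr3 and Cxcr6 added. With the median of each gene's probe sets, which put the threshold at 5.28, Ccr2 was lost and Cxcr3 gained. Cxcr3 has 1 probe set, so its value was unchanged and only the threshold moved.

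Of the 14 receptor genes, 8 lay at least 1 log2 unit below the threshold: Cxcr2, Cxcr4, Cxcr5, Ccr3, Ccr4, Ccr7, Ccr8 and Ccr9. In the CC group, Ccr1, a receptor for many inflammatory ligands, was at 4.82 and 4.59, and Ccr3, the eotaxin receptor, at 3.60 and 3.67. Ccr4, which marks skin-homing and type 2 T cells, was at 4.58 and 4.40. Ccr7, which leads T cells and dendritic cells to lymph nodes, was at 4.43 and 4.45. No probe set of these 4 genes was above the threshold on either array. Ccr8, found on T cell subsets, was at 4.26 and 4.46. Ccr9, which brings T cells to the gut, was at 4.27 and 4.36 on the brightest of 5 probe sets, all below the threshold. Ccr6 was at 5.50 and 5.05, closer to the threshold and below it on both arrays.

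**Figure D4:**
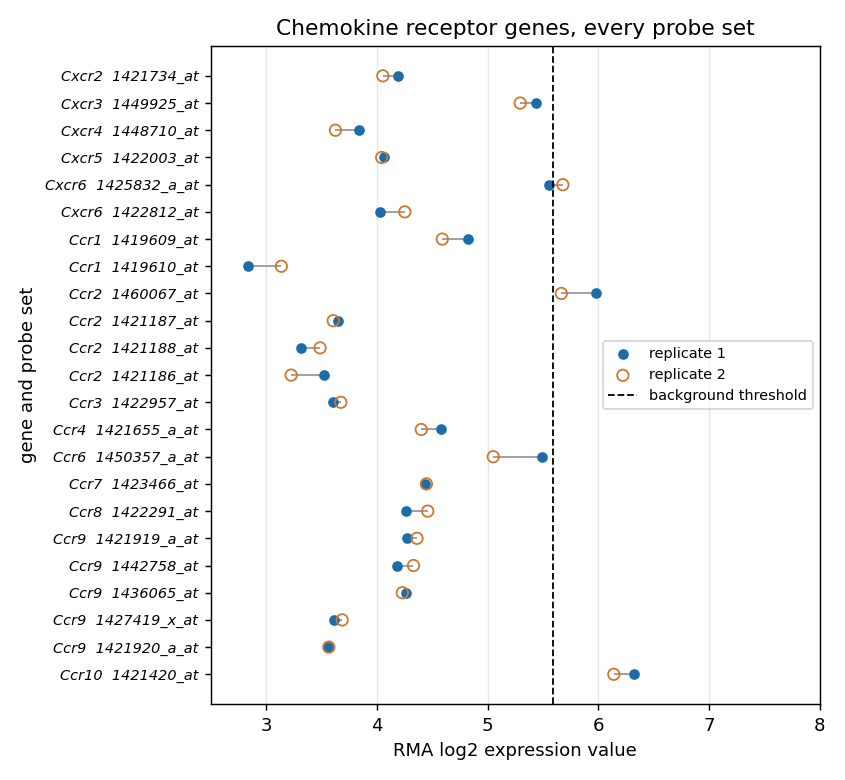
Each row is a probe set of the 14 receptor genes, CXC receptors first, with its RMA log2 value on replicate 1 (filled) and replicate 2 (open) and the background threshold of 5.59 (dashed). The probe set of Ccr10 and 1 of 4 probe sets of Ccr2 lie to the right of the line on both arrays, and a probe set of Cxcr6 has 1 array on each side.

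Receptors and ligands were set side by side by textbook binding. Of 13 receptor genes with a measured ligand gene, 11 were not above background, and 10 of these had at least 1 ligand gene that was. CXCR5 was the exception, since its ligand gene Cxcl13 was not called. Ccr2 was called together with all 3 of its ligand genes measured, Ccl2, Ccl7 and Ccl12, and Ccr10 with 1 of 2, Ccl28. As 80.6% of ligand genes and 14.3% of receptor genes were called, these counts follow largely from those shares. They are no result about the pairs.

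Markers of leukocytes, on which most of these receptors are known, were given beside the receptor calls. Of 16 measured leukocyte markers 10 were above background (62.5%), beside 68.4% of all genes, with values from 3.92 to 9.33 over the list and a mean of 5.91 on replicate 1 and 5.82 on replicate 2. Ptprc (CD45, on nearly all leukocytes) was at 3.96 and 4.14, and Itgam, the myeloid integrin CD11b, at 3.87 and 3.98; both were below the threshold. Lyz2 (9.33 ± 0.010) and Cd68 (7.45 ± 0.039), genes of macrophages, were above it, with Csf1r (6.73 ± 0.19) and Adgre1 (5.74 ± 0.11). So were Cd14 (7.19 ± 0.057), Flt3 (6.03 ± 0.20) and Fcgr1 (5.74 ± 0.18). The T cell genes Cd3e (6.56 ± 0.023), Cd4 (6.10 ± 0.034) and Cd8a (5.69 ± 0.086) were also above it. Ms4a1, Cd79a, Ncr1 and Itgax were not. The vomeronasal and taste receptor reference put the threshold at 6.06, above the Adgre1 value. With it 5 of the 16 markers were called, beside 61.7% of all genes. Of 8 endothelial markers 3 were above background, Pecam1 (6.20 ± 0.14), Kdr (6.67 ± 0.11) and Tek (6.15 ± 0.19), whereas the cadherin gene Cdh5 (4.47 ± 0.087) and Tie1 (3.87 ± 0.064) were not. The part of these cells in the chemokine values was not tested.

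The genes lie in clusters, as the GRCm38.p6 gene table orders them. On chromosome 11, Ccl2, Ccl7, Ccl11, Ccl12, Ccl8 and Ccl1 follow each other, and 5 of the 6 were above background, all but Ccl1. A second group on chromosome 11 holds Ccl5, Ccl9, Ccl6, Ccl3 and Ccl4, of which 4 of 5 were, all but Ccl3. On chromosome 5, 4 of 5 of Cxcl5, Cxcl3, Cxcl15, Cxcl1 and Cxcl2 were, all but Cxcl3, and so were all 3 of Cxcl9, Cxcl10 and Cxcl11. In the receptor cluster of chromosome 9, which holds Ccr9, Cxcr6, Ccr1, Ccr3 and Ccr2, only Ccr2 was called among the 5. Of all genes, 68.4% were called, and no cluster was tested against them.

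The other parts of the chemokine system gave mixed counts. Of 13 ligands and receptors with other names, 9 were above background (69.2%), close to the 68.4% of all genes. The 9 include Cx3cl1, the membrane-bound ligand fractalkine (8.62 ± 0.13), and the platelet chemokine genes Pf4 (6.04 ± 0.035) and Ppbp (9.18 ± 0.15). Ackr1, an atypical receptor that binds inflammatory chemokines (6.23 ± 0.073), was also called. The lymphotactin gene Xcl1 (5.17 ± 0.048) and the fractalkine receptor gene Cx3cr1 (4.80 ± 0.21) were not. With unshared probe sets alone, 5 of 10 genes of this list were above background, beside 69.4% of all genes.

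Downstream of the receptors, 14 of 21 measured signalling genes were above background (66.7%), close to the 68.4% of all genes. The inhibitory G protein subunit genes, used by many receptors besides those for chemokines, were called: Gnai1 (9.47 ± 0.068), Gnai2 (11.68 ± 0.0045) and Gnai3 (11.16 ± 0.056), with the β subunit gene Gnb1 (11.13 ± 0.0023). Arrb1, which encodes a β-arrestin (5.38 ± 0.032), and Pik3cg, the leukocyte PI3-kinase γ gene (5.15 ± 0.023), were not.

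All 14 measured genes for proteoglycans, heparan sulphate enzymes and proteases, which hold chemokines at the cell surface or cut them, were above background. Of all genes 68.4% were. The syndecan genes were at 10.71 ± 0.037 for Sdc1, 10.54 ± 0.025 for Sdc2, 9.70 ± 0.12 for Sdc3 and 11.58 ± 0.14 for Sdc4. All 19 measured genes for receptors and factors of chemokine induction were above background too, beside the same 68.4%. Among the 19 were Il1r1 (9.33 ± 0.028), Tnfrsf1a (10.51 ± 0.015), Il6ra (6.57 ± 0.040) and Il6st (11.14 ± 0.032). This list also holds genes of Toll-like receptors and of NF-κB inhibitors.

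Of 10 cytokines known to induce chemokines or made with them, 4 were above background (40%), beside 68.4% of all genes. The 4 were Tnf (5.78 ± 0.061), Il6 (11.38 ± 0.0083), Osm (6.10 ± 0.099) and Csf2 (6.38 ± 0.19). The interleukin-1 genes Il1a (3.69 ± 0.14) and Il1b (5.07 ± 0.20) were not. With the vomeronasal and taste receptor reference the count was 2 of 10, beside 61.7% of all genes. For scale, 33 of 73 genes with interleukin names, receptors included (45.2%), and 17 of 27 genes of the TNF superfamily (63%) were above background. The share of chemokine receptors lay below both and that of chemokine ligands above both. These shares describe 1 line and were not tested.

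Differences between the replicates were small in most chemokine genes, as in most genes of the arrays. Of the 31 members above the threshold on at least 1 array, 28 ligands and 3 receptors, 0 differed by 1.5-fold or more, beside 0.0783% of all genes filtered the same way, so that a count of 0 is no result about the members. The median difference, replicate 2 minus replicate 1, was 0.027 log2 units over these members and 0.015 over all genes, and the SD was wider over the members, 0.14 against 0.11. Among the 9 ligand genes with a mean above 10, a level that 15.7% of all genes passed, the widest gap was 0.094, in Ccl8.

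Wider gaps were found in genes near or below the threshold. Ccr6 was lower on replicate 2 than on replicate 1, with a difference of -0.44, where the SD of the difference over all genes of like level was 0.19. For Cxcl13 the difference was -0.33, for Ccr2 -0.31, for Ccl27a 0.27 and for Ccl3 -0.24, at an SD of 0.18 over genes of like level. For Ccl3, Cxcl13 and Ccl27a the gap put the arrays on either side of the threshold.

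**Figure D5:**
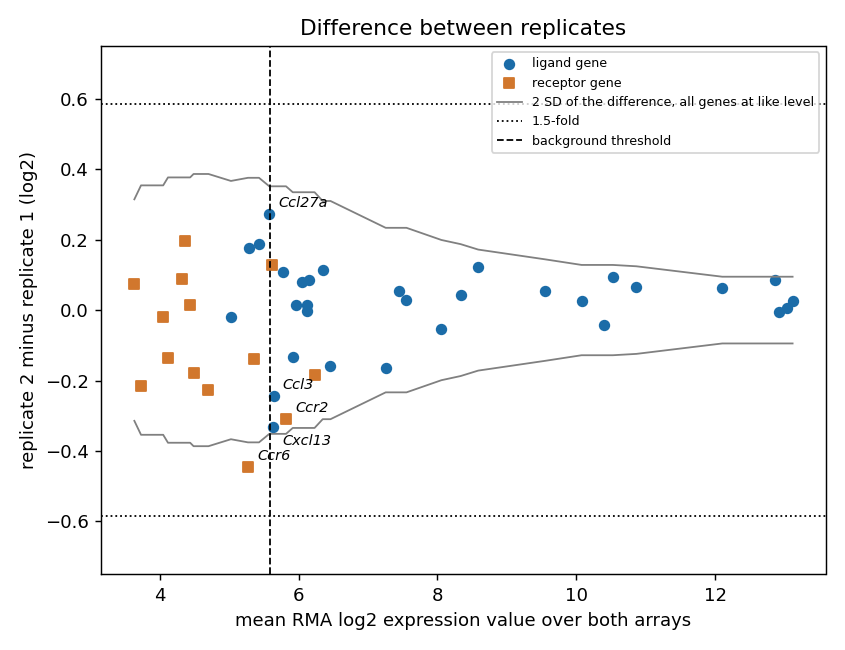
Points show the difference between the arrays (replicate 2 minus replicate 1, log2) against the mean RMA log2 value for 31 ligand and 14 receptor genes; grey lines are 2 SD of the difference over all genes of like level, dotted lines 1.5-fold, the dashed line the background threshold. All members lie within 1.5-fold, and Ccr6, at -0.44, lies outside the grey lines.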

How the data were processed

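Biotin-labelled cRNA made from 6 µg of total RNA was measured on 2 Affymetrix arrays of 1 group, per the labels' protocols. The authors deposited 1 log2 value for each probe set and array, computed with RMA per the submitters' processing notes. The RMA version and the set of arrays it ran on were not given in the sources used here. RMA equalises the arrays' distributions (medians 6.01 and 6.01), which hides any shift common to most genes. No detection call comes with RMA. Precision is limited by the number of arrays, 2.

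Of 45101 probe sets, 34958 had 1 gene symbol, 932 several and 9211 none here. All 45 member symbols matched the reference gene table by identifier, with 0 changed. The probe set with the highest mean stood for a gene. Columns not used numbered 0. The threshold was the 95th percentile of olfactory receptor genes, as 1 group of 2 arrays allows no test between groups and no p-value. Every SD rests on 2 values. SDs of the difference at like level are over 20 bins of mean value. Scripts ran in Python 3.11.15 with pandas 2.3.3 and were tested on simulated data.

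Members and gene lists were chosen with earlier results of these data known. The lists were other chemokine system genes, receptor signalling, presentation and processing, inducing cytokines, inducing receptors and factors, and markers of ES cells, fibroblasts, leukocytes and endothelium. Every member was named, and, in list order, 4 called and 2 uncalled genes of every other list. Ackr3 and the remaining leukocyte markers were named as well. Receptor and ligand pairs and promoter patterns were added after the values were seen. Alternatives were the median of all probe sets, unshared probe sets (no _a_at, _s_at or _x_at), vomeronasal and taste receptors as reference, the 90th and 99th percentiles, each array alone, loess (fraction 0.3), centring, no filter on dim genes and a fold threshold below 1.5.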

Additional observations from a re-analysis of the deposited data

How the results depend on the processing

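Alternatives gave 112 values, of which 103 were within 1.5 times the reported count (or, for the median difference, within the spread between replicates) and 9 were not. The ligand count of 25 of 31 fell to 19 (61.3%) with vomeronasal and taste receptors as the reference, beside 61.7% of all genes. At the 90th percentile the ligand count was 30 (96.8%), beside 74.8% of all genes. With unshared probe sets, whose threshold was lower at 5.28, it was 28 of 29, beside 69.4% of all genes. With each array alone, a looser rule under which no call could be lost, it was 26 to 27. Called under every setting that measured them were 19 ligand genes and 0 receptor genes. Ccl6, Ccl12, Ccl24, Ccl28, Cxcl11 and Cxcl17 lost their calls with vomeronasal and taste receptors. Called under no setting were 1 ligand gene, Ccl22, and 10 receptor genes. The receptor count of 2 became 0 with vomeronasal and taste receptors, 1 at the 99th percentile and 4 at the 90th, was 3 of 12 with unshared probe sets (Cxcr3 added) and 2 to 3 with each array alone. Taking each gene's median left it at 2, with Ccr2 lost and Cxcr3 gained at that setting's lower threshold of 5.28. With vomeronasal and taste receptors, whose threshold was higher on these arrays at 6.06, the TNF superfamily count was 11, that of inducing cytokines 2 and that of leukocyte markers 5. With unshared probe sets 5 of 10 other chemokine system genes were called, since fewer probe sets were kept. Each probe set counted on its own, an alternative chosen after seeing the data, gave 21621 of 34958. At the lower fold threshold 1 of the 31 members above background on at least 1 array, Cxcl13, differed between replicates; Ccr6, below background on both arrays and so not counted, had a wider gap. Taking each gene's median probe set moved 36 of 90 named genes by more than their SD. The 90 include genes with 1 probe set, whose value could not move. Of the 45 members, 16 had several. No paired analysis was possible because there is only 1 group. Signal over background limits the calls of genes near the threshold.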
